A study of Arabidopsis thaliana with 6 samples.

Results

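A set of 10 genes of the Arabidopsis thaliana circadian clock was followed in wild-type and cbe1 mutant seedlings: the 5 pseudo-response regulators PRR9, PRR7, PRR5, PRR3 and TOC1, the evening complex genes ELF3, ELF4 and LUX with the LUX relative BOA, and GIGANTEA (GI). They were selected by gene identifier, with earlier results of these data known. They make up a small part of the 33557 genes in the deposited table. Seedlings of Col0 (wild-type) and of the cbe1 mutant, 7 days old, had grown on 1% sucrose plates in long days (16 hours light, 8 hours night). Their poly(A) RNA was sequenced in 3 biological replicates per genotype. CBE1 is a plant protein that binds the translation factor eIF4E. The type of lesion in cbe1, the number of plants per library and the hour at which each genotype was harvested were not given by the labels, and levels of clock transcripts change with the hour.

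The plant clock is a set of transcription factors that repress each other in turn through the day. CCA1 and LHY act at dawn, the pseudo-response regulators then appear one after another from morning (PRR9) to dusk (TOC1) and repress CCA1 and LHY, and the evening complex of ELF3, ELF4 and LUX represses targets such as PRR9 in the night. GI acts after transcription, by stabilising the F-box protein ZTL, which in turn marks TOC1 and PRR5 protein for degradation.

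The genes called higher in cbe1 were ELF4 and the pseudo-response regulators other than PRR9. ELF3, LUX and BOA also had higher values, with an unadjusted p below 0.05 in the Cuffdiff test, and were not called. No gene of the set was called lower. A gene was called when the authors' Cuffdiff test gave it a q-value (a p-value adjusted over all 22303 tested genes) below 0.05. All 10 genes were tested by the authors. By this rule 5 of the 10 were called higher, against 3.31% of all tested genes, and 0 of the 10 were called lower, against 1.63%; 8 of the 10 had an unadjusted p below 0.05, against 16.7% of all tested genes. The 5 were ELF4, TOC1, PRR3, PRR7 and PRR5. The deposited level was higher in cbe1 for 9 of the 10 and lower for PRR9. The median log2 fold change of the 10 genes was 0.64, beside a median of 0.18 over the 21932 tested genes with a value above 0 in both genotypes. Among the 18727 tested genes with a mean of at least 1 FPKM (fragments scaled by transcript length and by the fragments mapped) the median was 0.17, so a typical gene read slightly higher in cbe1. Relative to that gene the median of the 10 was 0.47.

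The table gives 1 FPKM value per genotype and none per library, so no spread of a level can be shown. The standard error of each log2 fold change (cbe1 over Col0) is the one implied by the authors' test statistic, and intervals are 95% normal intervals from it, over 3 libraries per genotype. These errors inherit the authors' model of the spread between libraries. In whole seedlings, more cells that express a gene and more RNA per cell cannot be told apart.

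**Figure D1:**
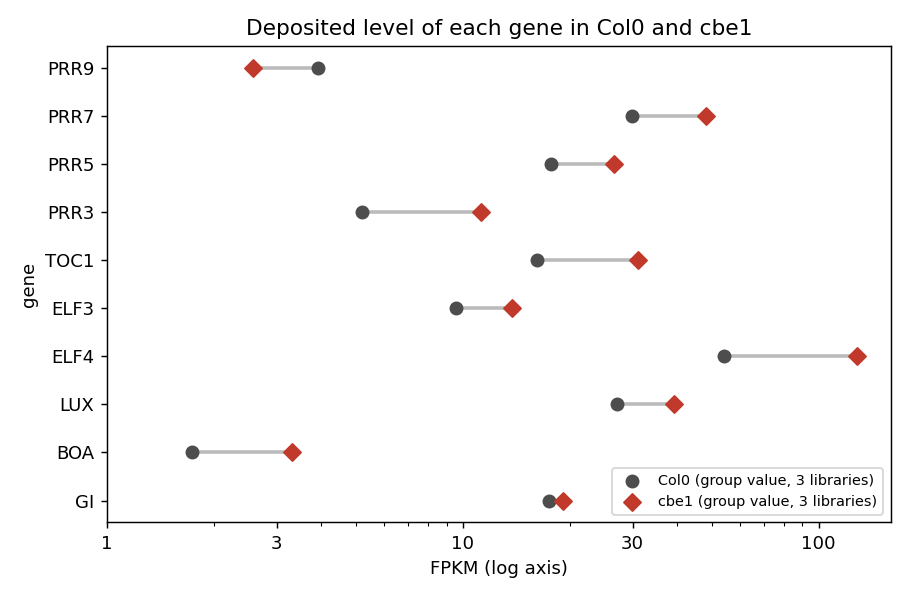
Deposited FPKM of each gene (log axis) in Col0 (circles) and cbe1 (diamonds), 1 value per genotype from 3 libraries. ELF4 was the most abundant in both genotypes, at 54.3 and 128.4 FPKM, and PRR9 is the gene whose cbe1 value lies to the left of its Col0 value.

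The sequence upstream of the 10 genes was read for motifs bound by clock proteins, as a description. In the 500 bases before the annotated start, on both strands, the evening element AAAATATCT, which RVE8, CCA1 and LHY bind, occurred in TOC1, PRR5, LUX and BOA, 4 of the 10 genes, and in 4.44% of 27438 protein-coding genes. The CCA1-binding site AAAAATCT occurred in PRR9 alone of the 10, and in 12.5% of all. The LUX-binding motifs GATACG and GATTCG occurred in PRR9, TOC1, ELF3, ELF4 and LUX, and in 22.6% of all. The G-box CACGTG, read by light-signalling factors such as PIFs and HY5, occurred in PRR9, PRR7, LUX and BOA, and in 9.35% of all. PRR3 and GI had no match to these letters in this window, and no match overlapped another. The evening element matches are shown with 30 bases on either side where the window allows, in the direction of transcription, with the element in capitals (AGATATTTT is the element on the other strand), and 2 further matches follow: the CCA1-binding site of PRR9, the gene with the only lower value, and the LUX-binding motif of ELF4, the gene with the largest rise. The other matches, among them 2 G-boxes and a LUX-binding motif in PRR9, are not printed. Sequences are from the RefSeq genome TAIR10.1.
TOC1, chr5:24674782-24674850, plus strand: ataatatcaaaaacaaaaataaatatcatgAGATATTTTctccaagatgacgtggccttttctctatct
PRR5, chr5:8359224-8359292, minus strand: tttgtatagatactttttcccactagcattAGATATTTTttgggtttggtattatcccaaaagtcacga
LUX, chr3:17182959-17183027, plus strand: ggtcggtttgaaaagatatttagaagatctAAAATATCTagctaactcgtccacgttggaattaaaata
BOA, chr5:24003815-24003883, plus strand: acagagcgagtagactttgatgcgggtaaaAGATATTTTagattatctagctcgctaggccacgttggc
PRR9, CCA1-binding site, chr2:19232261-19232328, plus strand: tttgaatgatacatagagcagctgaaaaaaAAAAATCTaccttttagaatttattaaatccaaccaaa
ELF4, LUX-binding motif, chr2:16735010-16735075, minus strand: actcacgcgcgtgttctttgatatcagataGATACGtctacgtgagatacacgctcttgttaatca

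Of the 4 genes with an evening element, TOC1 and PRR5 were called higher and LUX and BOA were not, while ELF4, PRR3 and PRR7 were called and had no evening element in the window. The element lay 143 to 151 bases before the start of TOC1, 381 to 389 before PRR5, 45 to 53 before LUX and 35 to 43 before BOA. A link between these positions and the changes was not tested. A match describes the letters only, and binding was not measured.

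**Figure D2:**
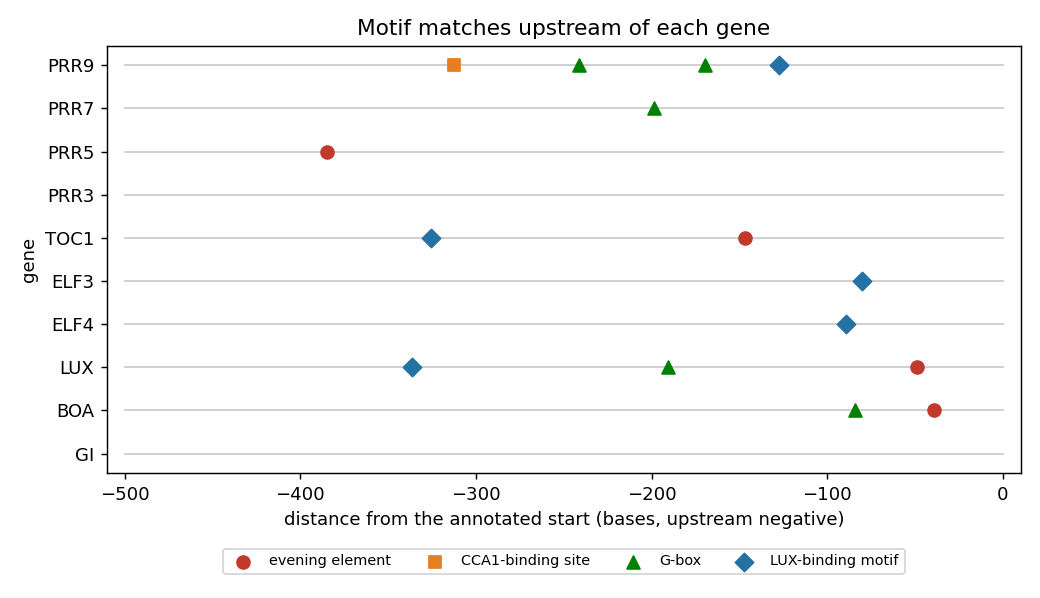
Position of each motif match in the 500 bases before the annotated start of each gene, upstream negative. Evening elements (red circles) sit closest to the start in LUX and BOA, and PRR9 carries the CCA1-binding site and 2 of the G-boxes.

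Among the pseudo-response regulators, which are repressors of CCA1 and LHY, 4 of 5 were called higher, against 3.31% of all tested genes. The calls of PRR7 and PRR5 depended on the centring of the fold changes, as given below. They are described here broadly in the order in which they are known to peak through the day. PRR9 (AT2G46790, chromosome 2, 19232649 to 19235087, TAIR10), the morning member, read 3.92 FPKM in Col0 against 2.58 in cbe1. That is a log2 fold change of −0.61 (95% interval −1.22 to 0.006), which was not called, with q = 0.307 in the authors' deposited table. At its low level a change of 0.94 on the log2 scale would have been needed for a call.

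PRR7 (AT5G02810, chromosome 5, 637897 to 641977), the midday member, was the most abundant of the family and rose from 29.96 to 48.3 FPKM. On the log2 scale the rise was 0.69 (interval 0.35 to 1.03; q = 0.00405 in the authors' deposited table). PRR5 (AT5G24470, chromosome 5, 8355951 to 8358873), the afternoon member, rose from 17.7 to 26.6 FPKM. With a log2 fold change of 0.59 (interval 0.24 to 0.94; q = 0.0277 in the authors' deposited table) it was the call closest to the threshold. When the authors' statistic was recentred on the median gene, PRR7 and PRR5 were no longer called (q = 0.0654 and 0.234). The members called higher then numbered 3, against 1.33% of all tested genes. With this recentring PRR9 was at −0.78 on the log2 scale and was not called (q = 0.166).

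TOC1 (AT5G61380, chromosome 5, 24675064 to 24678550), the dusk member and founder of the family, rose 1.92-fold, from 16.1 to 31.0 FPKM. In log2 terms this was 0.94 (interval 0.60 to 1.29; q = 1.94e-05 in the authors' deposited table). PRR3 (AT5G60100, chromosome 5, 24197998 to 24201404), which shields TOC1 protein from ZTL, rose 2.17-fold, from 5.19 to 11.3 FPKM. In log2 terms this was 1.12 (interval 0.63 to 1.61; q = 7.30e-04 in the authors' deposited table). PRR3 thus had the larger fold and TOC1 the narrower interval, and the difference between their log2 fold changes, TOC1 minus PRR3, was −0.18 (95% interval −0.78 to 0.43).

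The log2 fold change of PRR9 lay below those of PRR7, PRR5 and TOC1. The log2 fold change of PRR7 minus that of PRR9 was 1.30 (95% interval 0.59 to 1.996), PRR5 minus PRR9 was 1.20 (0.49 to 1.90) and TOC1 minus PRR9 was 1.55 (0.85 to 2.25). These intervals combine the implied errors as if the genes were independent, and no p was computed for them. In levels, PRR7 was 7.64 times PRR9 in Col0 and 18.7 times PRR9 in cbe1, and TOC1 was 4.11 times PRR9 in Col0 and 12.02 times PRR9 in cbe1.

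**Figure D3:**
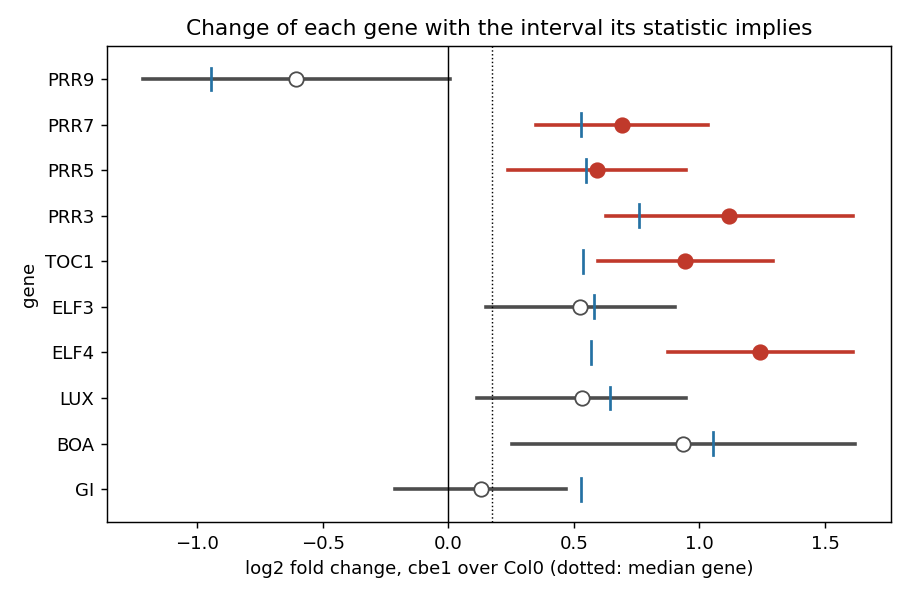
Log2 fold change of each gene, cbe1 over Col0, with the 95% interval implied by the authors' statistic. Filled red points were called, blue ticks mark the change needed for a call, and the dotted line is the median gene at 0.17. The intervals of ELF4 and TOC1 lie wholly above their ticks, and those of PRR9 and GI cross 0.

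Of the evening complex genes, ELF4 was called higher and the other 3 had higher values that were not called. ELF4 (AT2G40080, chromosome 2, 16734294 to 16734912) encodes a small protein of 111 residues that promotes the nuclear localisation of ELF3. It rose 2.36-fold, from 54.3 to 128.4 FPKM, or by 1.24 on the log2 scale (95% interval 0.87 to 1.61). Its q-value was 1.56e-08 in the authors' deposited table. By p-value it ranked 54 among the 22303 tested genes, and 3.51% of them had a larger rise in fold. ELF4 was also the gene with the largest gain in level, 74.1 FPKM, and accounted for most of the summed level of the complex genes, which was 92.7 FPKM in Col0 and 184.6 FPKM in cbe1.

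ELF3 (AT2G25930, chromosome 2, 11059035 to 11066028), the scaffold that binds both ELF4 and LUX, read 9.56 FPKM in Col0 against 13.8 in cbe1. The log2 fold change was 0.53 (95% interval 0.15 to 0.90; q = 0.0904 in the authors' deposited table). The ELF3 locus is shared in that table with ALPHA-VPE, which had 1.17 and 1.33 FPKM. LUX (AT3G46640, chromosome 3, 17183070 to 17185218; PCL1 in RefSeq), the DNA-binding member, had 27.1 and 39.2 FPKM, a log2 fold change of 0.53 (interval 0.11 to 0.95; q = 0.141 in the authors' deposited table). BOA (AT5G59570, chromosome 5, 24003888 to 24005512), the close relative of LUX, was the least abundant of the 10 genes in Col0, with 1.73 FPKM there against 3.31 in cbe1. The log2 fold change of 0.94 equalled that of TOC1 after rounding, but with a wider interval, of 0.25 to 1.62, and BOA missed the threshold (q = 0.0988 in the authors' deposited table).

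For ELF3, LUX and BOA the interval lay above 0 before adjustment over all genes (p = 0.00624, 0.0129 and 0.00723 in the authors' deposited table, from the Cuffdiff test). The changes needed for a call were 0.58, 0.65 and 1.05 on the log2 scale. A rise of the size seen in PRR5 would thus have been called in ELF3 and missed in LUX and BOA. The change of ELF4 exceeded that of ELF3 by 0.72 (95% interval 0.19 to 1.24) and that of LUX by 0.71 (0.15 to 1.27). No such difference was computed against BOA, whose interval of 0.25 to 1.62 held the ELF4 value of 1.24. As levels, ELF4 was 5.68 times ELF3 in Col0 and 9.33 times ELF3 in cbe1.

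GI (AT1G22770, chromosome 1, 8061844 to 8067716) read 17.5 FPKM in Col0 against 19.1 in cbe1. The log2 fold change was 0.13 (95% interval −0.21 to 0.47; q = 0.787 in the authors' deposited table), and it became −0.05 when recentred on the median gene. GI was measured as precisely as TOC1, since a change of 0.53 would have been called, and the upper end of its interval is a 1.38-fold rise. GI and TOC1 had similar levels in Col0 (ratio TOC1 to GI 0.92) and not in cbe1 (ratio 1.62), and their log2 fold changes differed by 0.82 (95% interval 0.33 to 1.30).

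The order of levels in Col0 was ELF4, PRR7, LUX, PRR5, GI, TOC1, ELF3, PRR3, PRR9 and BOA, from 54.3 down to 1.73 FPKM. In cbe1 it was ELF4, PRR7, LUX, TOC1, PRR5, GI, ELF3, PRR3, BOA and PRR9. With no spread of a level, neighbours in these orders cannot be called different.

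**Figure D4:**
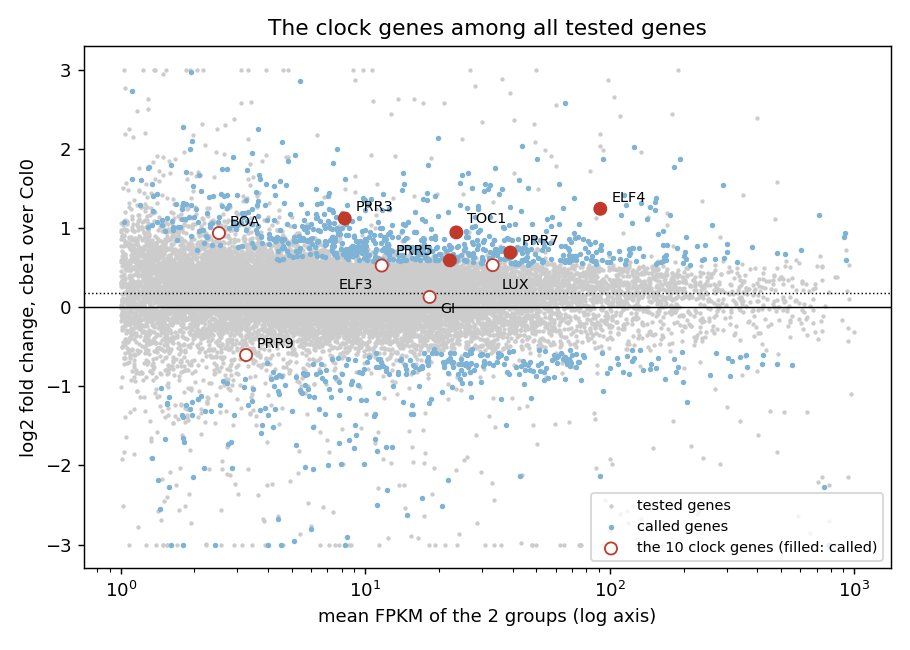
Log2 fold change (cbe1 over Col0) against mean FPKM (log axis) for the 18311 tested genes between 1 and 1000 FPKM, with values beyond 3 drawn at 3. The 5 called clock genes lie in the upper part of the cloud among the called genes in blue, and GI and PRR9 lie in or below its middle. Of all tested genes, 3.51% had a larger rise than ELF4 and 14.2% a larger rise than PRR5.

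Other genes of the clock give the setting. Of 58 genes in 8 lists, 55 were tested, 5 were called higher (9.09%, against 3.31% of all tested genes) and 0 lower (against 1.63%), and the median log2 fold change was 0.16. Of the 55, 12 had an unadjusted p below 0.05 in the Cuffdiff test, against 16.7% of all tested genes. The counts in each list below stand against these shares. No difference between these lists and the 10 genes was tested. Of 14 tested morning genes (CCA1, LHY, the REVEILLE genes and the LNK genes) 10 had lower values in cbe1, the median was −0.31, and the single call was a rise, of RVE2 (also CIR1; 4.17 to 8.86 FPKM). RVE4, the most abundant of these genes in Col0, had 35.7 and 27.0 FPKM and was not called; in cbe1 LNK2 was the most abundant, at 29.4 FPKM against 23.9 in Col0, and was not called. Recentred on the median gene, 1 of these genes was called lower (against 2.99% of all tested genes), LNK3 (q = 0.0348, with 6.45 and 3.98 FPKM as deposited). As deposited, 4 of the 14 morning genes had an unadjusted p below 0.05, RVE2 and, with lower values, RVE4, LNK3 and LNK4. CCA1 had 3.955 FPKM in Col0 and 2.90 in cbe1, LHY had 0.822 and 0.558, and neither was called. The 95% intervals of their log2 fold changes, −1.10 to 0.20 and −1.58 to 0.46, crossed 0.

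Genes that act with GI showed 1 call in 7 tested. FKF1, a light-sensing F-box protein that GI partners in flowering control, rose from 13.7 to 22.5 FPKM, and CDF3, of the DOF repressor family that FKF1 and GI remove, had 22.3 and 18.5 FPKM. The relatives of ELF4 and ELF3 had 0 calls in 4 tested by the Cuffdiff test, and 0 with an unadjusted p below 0.05. EFL2 had 14.6 and 15.4 FPKM and EFL4 8.90 and 7.27 FPKM.

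Partners and targets of the evening complex had 0 calls in 5 tested, also 0 at an unadjusted p below 0.05. PIF4 and PIF5, growth-promoting factors that the complex represses in the night, had 69.9 and 64.6 FPKM, and 40.4 and 35.7 FPKM. The 3 activators of ELF4 had 0 calls, again with 0 below that p. HY5 had 9.93 and 13.5 FPKM and FHY3 7.71 and 9.10 FPKM. Partners and corepressors of the PRR proteins had 0 calls in 8 tested, with 2 below an unadjusted p of 0.05, and 6 of the 8 had higher values in cbe1 (median log2 fold change 0.29). The 2 were the corepressor genes TPR2, with 4.31 and 5.996 FPKM, and TPR3, with 2.23 and 3.21 FPKM. The most abundant genes of the list had lower values. CHE, a repressor of CCA1 that TOC1 binds, had 85.1 and 74.0 FPKM, and the kinase WNK1 had 46.2 and 44.5 FPKM.

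Of 10 other clock-associated genes, JMJD5, a histone demethylase gene expressed in phase with TOC1, rose from 5.90 to 12.8 FPKM, while SKIP, a splicing factor, had 29.2 and 35.6 FPKM. Of 4 output genes 2 rose, against 3.31% of all tested genes. COR27 went from 9.58 to 24.7 FPKM, and AT4G33980, which the reference leaves unnamed, from 9.51 to 19.6 FPKM. Unadjusted, p was below 0.05 for 3 of the 4, against 16.7% of all tested genes. These were COR27, AT4G33980 and GRP7, which had 2193 and 3584 FPKM and was not called. Recentred on the median gene, 3 of the 5 calls in these lists remained, those of JMJD5, COR27 and AT4G33980, and the calls of RVE2 and FKF1 were lost.

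**Figure D5:**
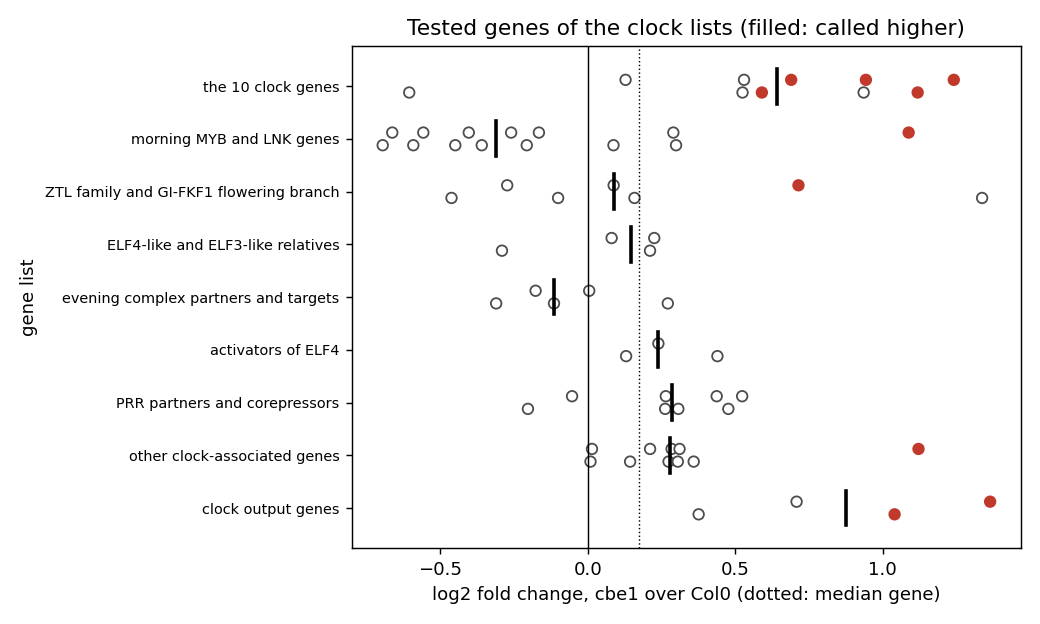
Log2 fold change (cbe1 over Col0) of every tested gene in the 10-gene set and in the 8 clock lists, with the list median as a black bar and the median gene dotted. The set of 10 has a median of 0.64 and the morning genes one of −0.31, and filled points were called higher.

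The genotype labels and the tissue were checked in the same table. CBE1 (AT4G01290, a match made from knowledge of the study, while RefSeq gives that gene the product name chorismate synthase) read 13.8 FPKM in Col0 against 4.48 in cbe1. Root, green leaf and vascular markers were all present. Of the vascular markers XCP1, a xylem protease gene, was called lower (18.7 to 11.7 FPKM). The other vascular markers, SUC2 (34.6 and 37.1 FPKM) and APL (4.24 and 6.08 FPKM), had higher values in cbe1 and were not called. Of the 4 flower markers AP1, AP3 and PI stayed at or below 0.207 FPKM, while SEP3 had 2.86 and 2.76 FPKM. Summed stomatal lineage markers were 8.83 FPKM in Col0 against 15.1 in cbe1, with higher values for 4 of 4 genes and 1 called, SPCH (0.591 to 1.99 FPKM). Summed root markers were 2466 and 1621 FPKM, nearly all PYK10 (2440 and 1583 FPKM), with 0 of 4 called. Of the other root markers CASP1 had 19.4 and 29.8 FPKM and EXP7 4.73 and 6.16 FPKM, so that 2 of the 4 had higher values in cbe1. The part of these markers in the clock gene results was not tested.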

How the data were processed

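Per the submitters' processing notes, TopHat and Cuffdiff were used on build TAIR10; versions, strand setting and scaling between libraries were not stated. In the deposited table each gene has a single FPKM value for each genotype, and the comparison has a log2 fold change with its statistic, p-value and q-value. A check on the table put the deposited p-value within 2.74e-06 of the normal p (two-sided) for its statistic, and the q-value within 2.46e-06 of a Benjamini-Hochberg adjustment of all tested genes. The statistic had the opposite sign to the log2 fold change in all 21932 tested genes with a value above 0 in both genotypes. The implied standard error is the absolute value of the log2 fold change divided by the statistic. Directions given here are those of the FPKM values. Depth and replicate spread are unknown. No pseudocount was used. Deposited starts count from 0 and are printed counted from 1.

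Recentred results subtract a shift from each fold change, divide by the implied error and adjust again over all tested genes; this step was tested on simulated data. Upstream windows begin at the outermost start given by the deposited table or RefSeq TAIR10.1, whose nuclear gene positions overlapped the deposited ones for 28625 of 28626 genes alone on their locus. No exact stretch of 28 bases or more of the 10 genes' exons was found elsewhere in the nuclear genome with BLAST.

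The 10 genes, the lists and the tests were chosen with earlier results of these data known. All 10 genes are named. From each list up to 3 calls by size of change are named, filled to 2 with the most abundant genes. CCA1, LHY, LNK2, LNK3, LNK4, CDF1, TPR2, TPR3, GRP7 and the tissue markers were named after their values were seen. Alternatives tried were a q-value of 0.01, a minimum log2 fold change of 1, a minimum mean of 1 FPKM, pseudocounts of 1 and 0.1, recentring, and genes alone on their locus. Python 3.11.15, numpy 2.4.6, pandas 2.3.3 and scipy 1.17.1 were used.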

Additional observations from a re-analysis of the deposited data

How the results depend on the processing

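Of the 5 called genes, ELF4 and PRR3 were called under each alternative tried. With a minimum log2 fold change of 1, 2 of the 10 genes and 386 of all tested genes were called, and with a q-value below 0.01, 4 and 562 were. Recentred on the median gene, 3 of the 10 genes and 3 of the other clock genes were called higher, against 1.33% of all tested genes. With that recentring 1 other clock gene was called lower, against 2.99%. GI then had a log2 fold change of −0.046. That recentring left 30.8% of all calls higher, against 67.0% as deposited.

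Recentring on the total of nuclear protein-coding genes was set by AT2G01021, a gene of 102 bases that held 85.9% of that total in Col0. It called 10 of the 10 genes, 55 other clock genes and 19852 genes in all, 99.9% of them higher, moved PRR9 to 1.15, and put the median of the 10 genes at 2.40 and of the 8 lists at 1.45 (morning), 1.84 (ZTL and GI branch), 1.90 (ELF4 and ELF3 relatives), 1.64 (complex partners), 1.996 (ELF4 activators), 2.04 (PRR partners and corepressors, and other clock genes) and 2.63 (outputs). Over genes alone on a locus of at least 300 bases, chosen after seeing the data, 4 of the 10 genes were called higher, PRR5 being lost. GI was at −0.011. Of the 55 other clock genes 5 were then called higher and 1 lower. Among all 22303 tested genes 947 were called with this recentring, 36.4% of them higher. The pseudocounts changed no direction.

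No paired analysis was possible because the table holds no value per library; for the same reason no replicate was left out. Depth is unknown, and low levels limit BOA and PRR9.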

Other observations

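BOA, PRR3 and TOC1 lie within 674663 bases of each other on chromosome 5 (24003888 to 24678550). Between them 144 other genes were tested, of which 8 were called higher (5.56%, against 3.31% of all tested genes) and 0 lower (against 1.63%), with a median log2 fold change of 0.15, beside 0.94, 1.12 and 0.94 for BOA, PRR3 and TOC1. Of the 20 tested genes nearest to the 10 clock genes on either side, 1 was called higher and 0 lower, against the same shares: AT5G24490, next to PRR5 and annotated as a 30S ribosomal protein, rose from 220.5 to 383.3 FPKM. The neighbours of ELF4 and TOC1 were not called. The gene AT5G24490 was named after its value was seen.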
